A study of Mus musculus with 16 samples.

Results

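Bulk RNA sequencing of mouse spinal cord was examined for 10 genes of the neuronal cytoskeleton. The genes were chosen by symbol: the neurofilament subunits Nefl, Nefm and Nefh, the neuronal intermediate filament genes Ina and Prph, the neuronal tubulin Tubb3, the microtubule-associated proteins Mapt, Map1b and Map2, and the neuronal ubiquitin hydrolase Uchl1. All 10 were found among the 24411 gene symbols of the deposited tables, and all 10 passed the filter on low values. The libraries came from female C57BL/6J mice in 3 groups. The SCI + Atorvastatin and SCI + Vehicle groups (7 mice each) had a 0.25 mm lateral compression spinal cord injury (SCI) at 12 weeks of age. From 2 weeks after injury they were injected every day for 4 weeks with atorvastatin (10 mg/kg), a cholesterol-lowering drug, or with the vehicle of dimethyl sulfoxide, polyethylene glycol, Tween and saline alone. Cord was taken at 6 weeks after injury from a short segment around the lesion. The Uninjured Control group held 2 mice of 12 weeks by the labels, with neither surgery nor injection. The methods of the study give these mice a slightly older age at isolation than the labels do, still younger than the injured mice. As a result, injury, surgery, injections and the greater age of the injured mice cannot be told apart in a comparison with them.

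Neurofilaments are heteropolymers that fill large axons and set their caliber. The light chain Nefl forms the core, Nefm and Nefh carry long phosphorylated tails that extend from it, and Ina or Prph can join the same filament. Microtubules run alongside, built in neurons partly from Tubb3 and bound by tau (Mapt) in axons, by Map2 in dendrites and cell bodies and by Map1b in both. In the cord these transcripts are made mainly by neuronal cell bodies, since most axonal messenger RNA is synthesized there. In bulk tissue, fewer neurons and less RNA per neuron cannot be told apart.

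In GRCm38, Nefl (chr14:68083863-68089095, plus strand) and Nefm (chr14:68082590-68124846, minus strand) are neighbors that overlap in the GENCODE annotation, sharing 1108 exon bases on opposite strands, which is 32.8% of the exon bases of Nefl and 19.2% of those of Nefm. Ina (chr19:47014698-47025327) shares 456 exon bases with Nt5c2 on the opposite strand, and Uchl1 (chr5:66676091-66687234) shares 295 with its antisense gene Uchl1os. Map2 (chr1:66175273-66442583) shares 124 bases with Gm10558. The library kit keeps strand, but whether strand was used in counting is not given in the sources used here, so these values are uncertain to the extent of the shared bases. Nefh (chr11:4938754-4948064), Prph (chr15:99055174-99058978), Tubb3 (chr8:123411424-123422015), Mapt (chr11:104231390-104332090) and Map1b (chr13:99421446-99516540) shared no exon bases with another gene.

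Promoter windows of 250 bases from RefSeq (GRCm38.p6) were held for 6 of the 10 genes (Ina, Prph, Tubb3, Map1b, Map2 and Uchl1). Those of Ina and Prph, filament genes that fell after injury, and of Map1b, a microtubule gene that differed less, are printed because they lie wholly before the annotated gene. Capitals mark TATAAA and GGGCGG on either strand. The windows are chr19:47014431-47014680 (plus strand) for Ina, chr15:99054924-99055173 (plus strand) for Prph and chr13:99516603-99516852 (minus strand) for Map1b.
Ina: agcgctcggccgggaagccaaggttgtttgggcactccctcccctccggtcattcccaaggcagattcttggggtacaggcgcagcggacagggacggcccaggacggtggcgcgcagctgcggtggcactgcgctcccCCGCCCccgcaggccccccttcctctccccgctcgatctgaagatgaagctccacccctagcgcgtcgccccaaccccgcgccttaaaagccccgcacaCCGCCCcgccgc
Prph: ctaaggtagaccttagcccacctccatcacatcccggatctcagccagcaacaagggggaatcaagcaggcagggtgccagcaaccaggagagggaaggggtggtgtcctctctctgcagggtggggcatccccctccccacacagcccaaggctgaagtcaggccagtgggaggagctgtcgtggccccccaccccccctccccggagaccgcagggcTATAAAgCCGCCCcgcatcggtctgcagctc
Map1b: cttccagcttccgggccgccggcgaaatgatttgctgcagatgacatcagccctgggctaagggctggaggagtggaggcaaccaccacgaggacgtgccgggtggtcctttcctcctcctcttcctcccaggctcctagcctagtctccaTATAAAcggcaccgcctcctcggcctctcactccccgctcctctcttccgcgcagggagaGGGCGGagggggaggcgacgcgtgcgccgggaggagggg
TATAAA was found in Prph and Map1b, 2 of the 6 windows, against 12.4% of all 32851 promoter windows of this length. GGGCGG was found in 5 of the 6, all but Uchl1, against 32.7% of all windows, and no occurrence of one overlapped the other. The GC content of the 6 windows ran from 48.8% (Uchl1) to 81.2% (Map2), against a median of 52.4% over all windows. These matches describe the letters of the windows and were not tested as binding sites.

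The libraries held 14823292 to 25579826 counts on genes. Counts above 0 were found for 16399 to 19338 genes in the SCI libraries, but for 12732 and 12356 in the Uninjured Control libraries, where 13.6% and 15.6% of the 13959 genes with at least 10 counts in every SCI mouse were at 0. The Uninjured Control libraries also differed from each other more (r = 0.807 over genes on the log2 CPM scale) than any pair of mice within an SCI group did (r = 0.940 to 0.981), and 4 liver genes (Alb, Apoa1, Apoa2, Fgb) summed to 586 and 3669 CPM (counts scaled to a common library total) in them, against at most 5.18 in any SCI library. All 10 cytoskeletal genes had between 555 and 153278 counts in every library. The part that these features of the Uninjured Control libraries have in the differences below was not tested.

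The neurofilament transcripts were among the most abundant in the cord. On the TPM scale (relative transcript abundance, corrected for length and library total by the authors), Nefl had a mean level of 4413 ± 675 TPM (SD, n = 2) in Uninjured Control mice, which was rank 9 of 24411 genes. Nefm stood at rank 13 with 3137 ± 604 TPM and Nefh at rank 51 with 1788 ± 462 TPM. In SCI + Vehicle mice the level of Nefl was 3037 ± 547 TPM (SD, n = 7) and in SCI + Atorvastatin mice 2731 ± 324 TPM (SD, n = 7), ranks 16 and 22. The 10 genes together took 1.61% and 1.88% of all counts in the Uninjured Control libraries, 1.03% to 1.52% in the SCI + Vehicle libraries and 0.976% to 1.25% in the SCI + Atorvastatin libraries. These shares of counts overlapped between the injured groups and stayed below both Uninjured Control libraries. As a share of TPM that separation did not hold, since SCI + Vehicle replicate 7 lay above Uninjured Control replicate 1. The same was true of Nefl, Nefm and Nefh summed in TPM.

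The order of TPM levels was much alike in the 3 groups. Nefl was above Nefm, and Nefm above Nefh, in every mouse. Map1b came next with means of 1150 ± 300 TPM in Uninjured Control, 1014 ± 115 TPM in SCI + Vehicle and 940 ± 129 TPM in SCI + Atorvastatin mice. Nefh was above Map1b in all SCI + Vehicle mice and in 6 of 7 SCI + Atorvastatin mice. Uchl1 and Tubb3 followed, with 690 ± 120 and 424 ± 57.1 TPM in SCI + Vehicle mice. In the Uninjured Control group Map1b was above Uchl1 in only 1 of 2 mice. Map2, Ina and Mapt lay close together at the lower end (291 ± 36.2, 219 ± 68.7 and 192 ± 18.1 TPM in SCI + Vehicle mice), and Ina and Mapt did not separate there, since only 5 of the 7 mice had more Ina than Mapt. The means of Ina and Map2 changed places between groups, Ina having the higher mean in Uninjured Control mice and Map2 in both injured groups. That mean rests on 1 of the 2 Uninjured Control mice. Replicate 1 had 392 TPM of Ina and 209 TPM of Map2, whereas replicate 2 had 230 and 328 TPM. Prph was lowest in every group, with 158 ± 16.5, 85.5 ± 15.3 and 67.3 ± 6.67 TPM.

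Comparison of SCI + Vehicle with Uninjured Control mice asked how the injury stood at its chronic stage. Of the 10 genes, 8 fell at an adjusted p below 0.05 with a change past 1.25-fold, the size limit taken from the study methods, and none rose. Over all 16091 genes tested, 9.55% fell, 19.8% rose and 29.4% were called in either direction by the same rule. On counts with both control mice, the falls ran from 1.10 (Ina) to 0.34 (Mapt) on the log2 scale, but Ina stood at -0.53 on log2(TPM + 1) and at -0.78 without Uninjured Control replicate 1, in both cases less far than Prph and without a call. The median log2 fold change of the 10 genes was -0.74, against 0.17 over all genes tested. The latter was 0.03 with a mean TPM above 1 required in every group. Levels in the sentences that follow are CPM scaled by TMM (trimmed mean of M-values), and fold changes are those of edgeR's quasi-likelihood test with Benjamini-Hochberg adjustment over all genes tested.

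**Figure D1:**
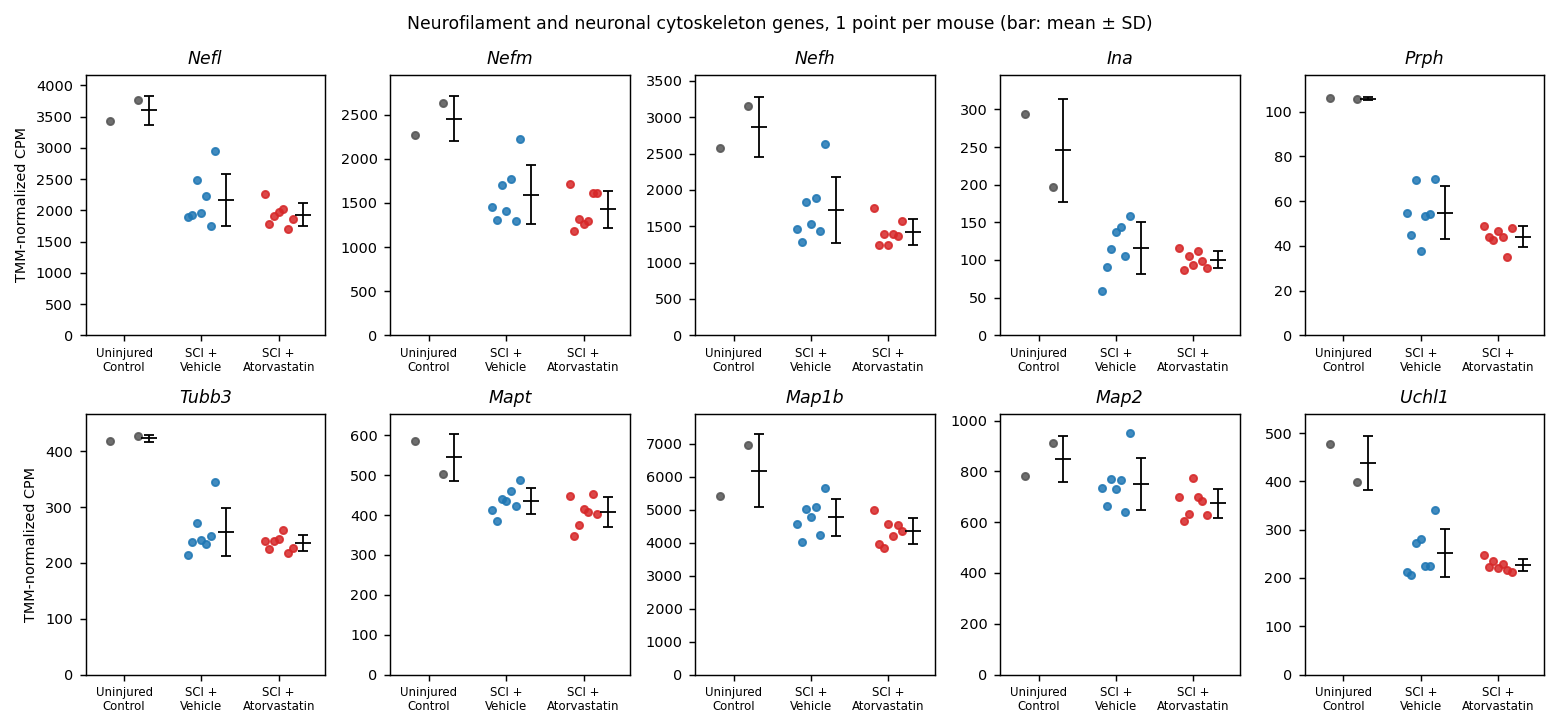
Level of each of the 10 genes in TMM-normalized CPM (vertical axis, linear, from 0) for the 3 groups, 1 point per mouse, with the mean ± SD as a black bar beside the points (n = 2, 7 and 7). The Uninjured Control mice sit above all injured mice in Nefl, Nefm, Ina, Prph, Tubb3, Mapt and Uchl1, and SCI + Vehicle replicate 7 is the highest of its group in each panel.

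Among the neurofilament subunits, Nefl was at 3434 and 3763 CPM in the Uninjured Control mice, while SCI + Vehicle mice ran from 1754 through a median of 1958 to 2949 CPM. The groups did not overlap, and Nefl fell by 40.3% (log2 fold change -0.74 ± 0.17 SE, adjusted p = 0.00928). Nefm was at 2276 and 2637 CPM in Uninjured Control mice and between 1300 and 2225 CPM, with a median of 1459, in SCI + Vehicle mice. Nefm fell by 35.7% (log2 fold change -0.64 ± 0.19 SE, adjusted p = 0.0272), with its highest SCI + Vehicle mouse just under the lower of the Uninjured Control mice. Nefh, the heavy subunit of mature axons, was at 2575 and 3161 CPM in Uninjured Control mice and between 1279 and 2635 CPM, with a median of 1533, in SCI + Vehicle mice. For Nefh 6 of 7 injured mice lay below both Uninjured Control mice, and replicate 7 lay between them. Nefh fell by 40.4% (log2 fold change -0.75 ± 0.23 SE, adjusted p = 0.0303).

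Ina (alpha-internexin) and Prph (peripherin) can each join neurofilaments. Without 1 control mouse the log2 fold change of Ina ran from -1.36 to -0.78, while that of Prph ran from -0.97 to -0.95. Ina was at 294 and 197 CPM in the Uninjured Control mice, which were far apart, and ran from 59.3 through 114 to 159 CPM in SCI + Vehicle mice. The groups did not overlap, and Ina fell by 53.3% (log2 fold change -1.10 ± 0.29 SE, adjusted p = 0.0167). Prph, which marks spinal motor neurons and peripheral sensory neurons, was at 106.3 and 105.5 CPM in Uninjured Control mice and ran from 37.8 through 54.1 to 69.9 CPM in SCI + Vehicle mice. The groups were well apart, and Prph fell by 48.6% (log2 fold change -0.96 ± 0.21 SE, adjusted p = 0.0061).

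Among the microtubule genes, Tubb3 (class III beta-tubulin) fell by 40.2%, from 419 and 428 CPM in Uninjured Control mice to between 214 and 344.3 CPM, with a median of 241, in SCI + Vehicle mice (log2 fold change -0.74 ± 0.15 SE, adjusted p = 0.00501). Its highest injured mouse was below both Uninjured Control mice. Mapt, the tau gene, was at 587 and 503 CPM in Uninjured Control mice and ran from 385 through 436 to 487 CPM in SCI + Vehicle mice, again without overlap. Mapt fell by 20.9% (log2 fold change -0.34 ± 0.11 SE, adjusted p = 0.0396), the smallest of the called differences, and kept its call in 6 of 19 alternative settings. Map1b was at 5395 and 6957 CPM in Uninjured Control mice and between 4013 and 5662 CPM, with a median of 4784, in SCI + Vehicle mice. Map1b was not called by edgeR (log2 fold change -0.39 ± 0.14 SE, adjusted p = 0.0603), and 6 of 7 injured mice lay below both Uninjured Control mice. It was called lower by DESeq2 and by edgeR with the library scaling of DESeq2. The same held in the fit of all 3 groups and without SCI + Vehicle replicate 7. Without Uninjured Control replicate 1 the log2 fold change of Map1b was -0.56. Map2 was at 783 and 911 CPM in Uninjured Control mice and between 639 and 951 CPM, with a median of 735, in SCI + Vehicle mice, so that the highest value of all was in an injured mouse. Map2 was not called (log2 fold change -0.19 ± 0.14 SE, adjusted p = 0.354), with a 95% interval from -0.52 to 0.15.

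Uchl1, a deubiquitinating enzyme abundant in neurons, was at 478 and 399 CPM in Uninjured Control mice and ran from 205 through 226 to 341 CPM in SCI + Vehicle mice. The groups did not overlap, and Uchl1 fell by 43.1% (log2 fold change -0.81 ± 0.18 SE, adjusted p = 0.00695). In TMM-scaled CPM every SCI + Vehicle library lay below both Uninjured Control libraries in 7 of the 10 genes, a pattern that 10.7% of all genes tested showed. On TPM only Nefl, Prph, Tubb3 and Uchl1 were free of overlap. The highest SCI + Vehicle values of Nefm, Ina and Mapt were 3003, 309 and 222 TPM. The lowest Uninjured Control values of these genes were 2710, 230 and 208 TPM.

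The calls of both comparisons with Uninjured Control mice changed with the model of the spread. When limma-voom let each group have its own spread, 0 of the 10 genes were called in either comparison, with 3 and 6 at an unadjusted p below 0.05 and with 132 and 145 of all genes called. On log2(TPM + 1), 3 of the 10 (Prph, Tubb3 and Uchl1) were called in SCI + Vehicle mice, with 4452 of all genes called and 689 of them lower, and 7 of the 10 (not Mapt, Map1b and Map2) in SCI + Atorvastatin mice, with 6316 called and 1238 lower. Without SCI + Vehicle replicate 4, 5 of the 10 were called in SCI + Vehicle mice (4151 of all genes, 1259 of them lower), without Uninjured Control replicate 1 Ina and Mapt lost their calls, and without Uninjured Control replicate 2 Nefm and Nefh lost theirs.

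The direction of Map2 depended on the scale. Its difference was 0.14 in SCI + Vehicle mice and 0.01 in SCI + Atorvastatin mice on log2(TPM + 1), where the median over all genes was also higher, at 0.49 and 0.52. Taken relative to the median of all genes, Map2 stood at -0.36 in counts and -0.34 in TPM in SCI + Vehicle mice. That median depended on the gene filter. In counts it was only 0.03 in SCI + Vehicle mice with a mean TPM above 1 required in every group. The CPM of a gene per unit of TPM was higher in Uninjured Control than in SCI libraries by a median of 0.13 on the log2 scale over 9937 genes. For Ina it was higher by 0.57 and for Map2 by 0.31, while for the neurofilament subunits it was higher by 0.18 to 0.21. The fall of Ina was accordingly smaller in TPM, at a log2 difference of -0.53. All 10 genes lay below the median of all genes in every alternative fit run.

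SCI + Atorvastatin mice were compared with the same 2 Uninjured Control mice, so the comparisons are not independent of each other. In SCI + Atorvastatin mice 9 of the 10 genes fell and none rose, while of all genes tested 14% fell, 24.9% rose and 38.9% were called in either direction. The balance over all genes depended on the filter and the model. With a mean TPM above 1 required in every group, 1936 genes fell and 1774 rose in SCI + Atorvastatin mice and 1137 fell and 1261 rose in SCI + Vehicle mice, and with voom 127 fell and 18 rose in SCI + Atorvastatin mice and 115 fell and 17 rose in SCI + Vehicle mice. The median log2 fold change of the 10 genes was -0.86, against 0.21 over all genes, or 0.02 with that filter. Ina fell by 59.0% (log2 fold change -1.29 ± 0.15 SE, adjusted p = 0.000148), with injured mice between 86.8 and 116 CPM. Prph fell by 58.0% (log2 fold change -1.25 ± 0.13 SE, adjusted p = 7.08e-05), with injured mice between 35.1 and 48.8 CPM. Nefh fell by 50.1%. The other changes called were -48.0% for Uchl1, -46.0% for Nefl, -43.9% for Tubb3, -41.4% for Nefm, -29.0% for Map1b and -24.8% for Mapt, with adjusted p-values from 4.65e-05 (Tubb3) to 0.0145 (Mapt). Mapt lost its call without Uninjured Control replicate 1 and Map1b without Uninjured Control replicate 2. Map2 had an adjusted p of 0.0328 but a log2 fold change of -0.32, just inside the 1.25-fold limit, and was not called. Map2 was called lower by DESeq2, by edgeR with the library scaling of DESeq2, and in the fit of all 3 groups. The same held with the filter of a TPM above 1 in every group, and without SCI + Atorvastatin replicate 1, 4 or 5. Without Uninjured Control replicate 1 the log2 fold change of Map2 was -0.42. In TMM-scaled CPM every SCI + Atorvastatin library lay below both Uninjured Control libraries in all 10 genes, which 14.2% of all genes tested showed. On TPM the ranges overlapped in Mapt, Map1b and Map2. There Map2 ran from 235 to 306 TPM in SCI + Atorvastatin mice, against 209 and 328 TPM in Uninjured Control mice.

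**Figure D2:**
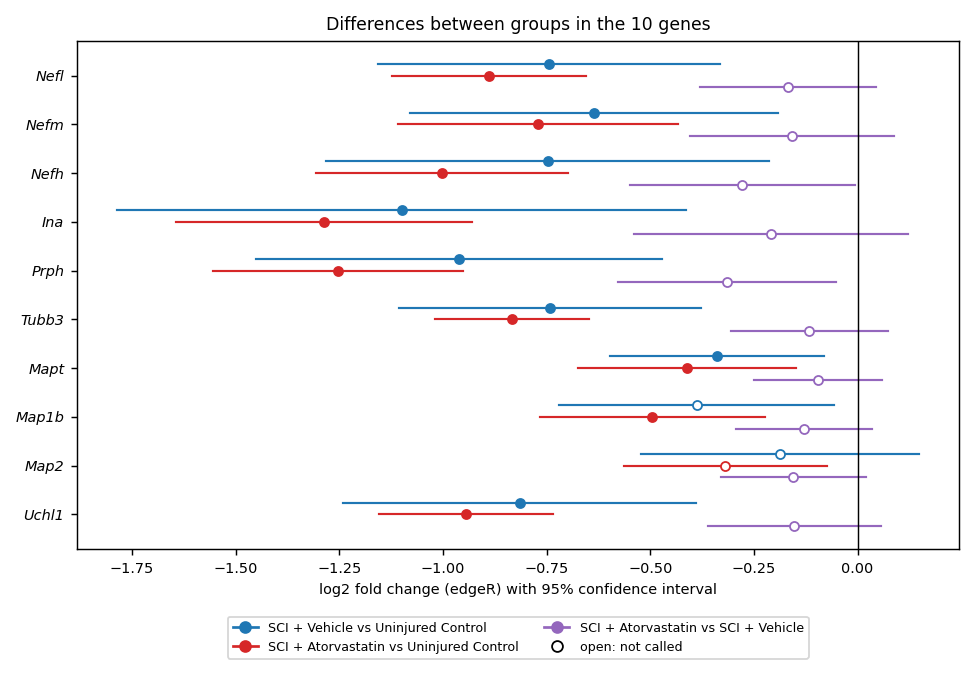
Log2 fold change of the 10 genes (horizontal axis) with its 95% confidence interval, for SCI + Vehicle vs Uninjured Control (blue), SCI + Atorvastatin vs Uninjured Control (red) and SCI + Atorvastatin vs SCI + Vehicle (purple), filled where called. The intervals against Uninjured Control mice exclude 0 for all genes but Map2 in SCI + Vehicle mice, while those between the injured groups include 0 for 8 of 10 genes.

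Comparison of SCI + Atorvastatin with SCI + Vehicle mice asked whether the drug altered these transcripts after injury. None of the 10 genes was called by edgeR, and 0 of all 16091 genes were (0.0%), nor was any by DESeq2 or limma. At an unadjusted p below 0.05, 2 of the 10 genes (Prph and Nefh) were lower, against 3.01% of all genes tested that were lower and 7.03% in either direction. Under the second rule of the study (unadjusted p below 0.001 and the same fold limit) 0 of the 10 passed, against 0.106% of all genes. The ranges of the injured groups overlapped in all 10 genes, while 0.0311% of all genes had every SCI + Atorvastatin library below every SCI + Vehicle library.

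All 10 log2 fold changes were below 0, from -0.10 (Mapt) to -0.32 (Prph), with a median of -0.16, and 50.3% of all genes tested were below 0. The genes share neurons as a source and varied together between mice, so the 10 signs are not independent of each other. The median was -0.083 without SCI + Vehicle replicate 7, and between -0.20 and -0.14 without any other single mouse. Prph ran from 35.1 through 44.1 to 48.8 CPM in SCI + Atorvastatin mice, and all 7 lay below the SCI + Vehicle median of 54.1 CPM, although the ranges overlapped (log2 fold change -0.32 ± 0.12 SE, adjusted p = 0.680). Nefh ran from 1245 through 1387 to 1746 CPM, with 5 of 7 mice below the SCI + Vehicle median (log2 fold change -0.28 ± 0.12 SE, adjusted p = 0.693). For Nefl the values ran from 1707 through 1910 to 2262 CPM (log2 fold change -0.17 ± 0.10 SE, adjusted p = 0.749), and its 95% interval ran from 23.2% lower to 3.19% higher. The intervals of the 10 genes reached at most 33.0% lower (Prph) and at most 8.80% higher (Ina), so larger differences in either direction lay outside them.

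The spread between mice was smaller in SCI + Atorvastatin than in SCI + Vehicle mice in 9 of the 10 genes, as a coefficient of variation of TMM-CPM, and without SCI + Vehicle replicate 7 in 7 of them. Over 13857 genes with at least 10 counts in every SCI mouse the same held for 66.8%, and without that mouse for 59.3%. For Uchl1 the coefficient was 5.47% in SCI + Atorvastatin and 19.4% in SCI + Vehicle mice, and 13.4% without replicate 7. For Tubb3 it was 5.79% and 16.8%, and 7.99% without replicate 7. Mapt was the exception, with 9.38% and 7.63%. These coefficients are descriptions and were not tested.

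SCI + Vehicle replicate 7 was the highest of its group in all 10 genes, and SCI + Atorvastatin replicate 1 was the highest of its group in 7 of them. In SCI + Vehicle replicate 7 the neuron markers summed to 2827 CPM, the highest of its group, while its fibroblast markers (110 CPM) and Schwann cell markers (132 CPM) were the lowest of the group. The part of tissue composition in its high cytoskeletal transcripts was not tested.

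Ratios of 2 genes within a library do not depend on how libraries are scaled. Nefm per Nefl had a mean log2 count ratio of -0.55 ± 0.06 (SD, n = 2) in Uninjured Control, -0.45 ± 0.08 (SD, n = 7) in SCI + Vehicle and -0.44 ± 0.22 (SD, n = 7) in SCI + Atorvastatin mice. Nefh per Nefl stood at -0.33 ± 0.12, -0.35 ± 0.14 and -0.44 ± 0.14 in the same order. For both ratios the groups overlapped and no test passed, although the difference of 0.11 in Nefm per Nefl between SCI + Vehicle and Uninjured Control mice was larger than the SD of either group (exact permutation p = 0.167). Prph per Nefl was -5.08 ± 0.10 in Uninjured Control, -5.31 ± 0.23 in SCI + Vehicle and -5.45 ± 0.12 in SCI + Atorvastatin mice. All 7 SCI + Atorvastatin mice lay below both Uninjured Control mice in Prph per Nefl (difference -0.37, exact two-sided permutation p = 0.0556, adjusted p = 0.778), and 0.0556 is the smallest p that 7 mice against 2 can give. Tubb3 per Nefl was -3.09 ± 0.07, -3.08 ± 0.14 and -3.03 ± 0.09.

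Nefl per Rbfox3, the gene of the neuronal nuclear antigen NeuN, was 4.13 ± 0.53 in Uninjured Control, 4.08 ± 0.27 in SCI + Vehicle and 4.17 ± 0.25 in SCI + Atorvastatin mice. The groups overlapped, and the differences from Uninjured Control mice were -0.05 and 0.04 (exact permutation p = 0.889 for each). Their direction turned with the control mouse left out, to -0.42 or 0.32 in SCI + Vehicle mice and to -0.33 or 0.41 in SCI + Atorvastatin mice. None of the 21 ratio tests (7 ratios in 3 comparisons) passed an adjusted p below 0.05. With 2 control mice the ratio tests could not have passed 0.05 against them even before adjustment.

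**Figure D3:**
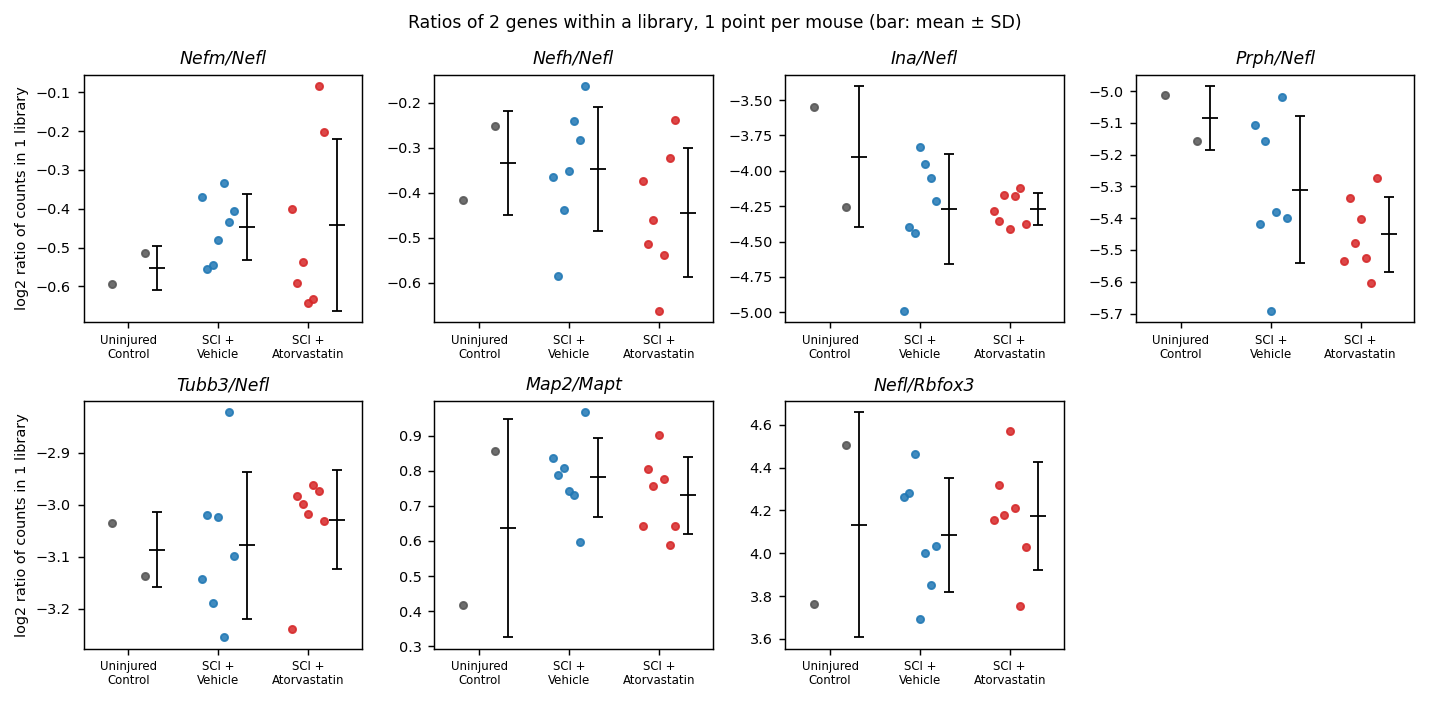
Log2 ratio of the counts of 2 genes in 1 library (vertical axis, scale differs between panels and does not start at 0) for the 3 groups, 1 point per mouse, with mean ± SD as a black bar. In Prph per Nefl the 7 SCI + Atorvastatin mice lie below both Uninjured Control mice, while in Nefl per Rbfox3 and Tubb3 per Nefl the groups overlap.

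The 10 genes varied together between injured mice. Over the 14 SCI mice, with group means removed, Nefl correlated with each of the other 9 genes, from r = 0.55 with Mapt (Spearman's rho = 0.56) to r = 0.87 with Nefh (rho = 0.81). With 100000 permutations the 9 p-values of r, adjusted over the 9 relations, ran from 0.00117 to 0.0412, and those of rho from 0.0072 to 0.0416. Mice were permuted across both injured groups although their spread differed, so these p-values are approximate. Without SCI + Atorvastatin replicate 1 and SCI + Vehicle replicate 7, the mice farthest from the median in Nefl, r ran from 0.26 (Mapt) to 0.65 (Nefh), so the relations with Mapt, Ina (0.43) and Nefm (0.44) rest in large part on those mice.

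Within the SCI + Vehicle group r ran from 0.60 (Ina) to 0.95 (Nefm), and within the SCI + Atorvastatin group from 0.23 (Nefm) to 0.78 (Uchl1). The relation of Nefl with Nefm stood furthest apart between the groups, with exact permutation p = 0.00417 in SCI + Vehicle and p = 0.629 in SCI + Atorvastatin mice, and the difference itself was not tested. Over the 45 pairs of the 10 genes r ran from 0.10 to 0.93 with a median of 0.66, and 35 pairs were over 0.5. The pairs share libraries and their depth and composition, so they are a description.

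**Figure D4:**
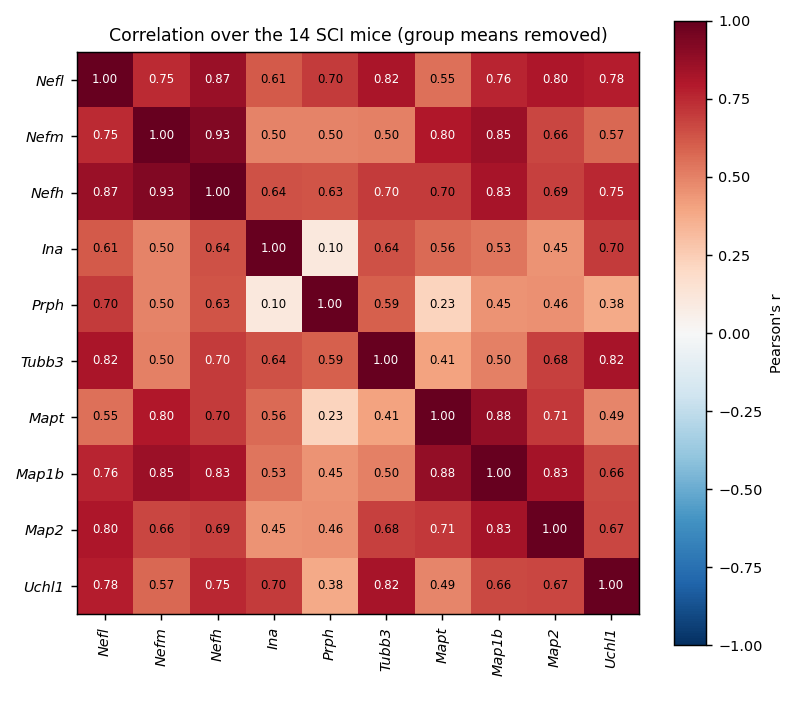
Pearson's r between the log2 TMM-CPM of each pair of the 10 genes over the 14 SCI mice after the group means were removed (color scale from -1 to 1, values printed in the cells). All 45 pairs are above 0, the highest at 0.93 between Nefm and Nefh and the lowest at 0.10.

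Outside the 10 genes, the 5 most like Nefl, Nefm and Nefh over the 14 mice by the mean of the 3 correlations were 9530082P21Rik (0.88), Slc6a11 (0.88), Rab6b (0.86), Vapb (0.85) and Klc1 (0.84), among 13857 genes whose median was 0.018 and whose upper 1% began at 0.71. Slc6a11 encodes a GABA transporter of astrocytes, Rab6b a neuronal vesicle GTPase, Vapb an endoplasmic reticulum anchor and Klc1 a kinesin light chain. In SCI + Vehicle mice Slc6a11 fell by 0.86 on the log2 scale (adjusted p = 0.0046), Rab6b fell by 0.70 (adjusted p = 0.006) and Klc1 fell by 0.58 (adjusted p = 0.014). Vapb (-0.50, adjusted p = 0.0601) and 9530082P21Rik (-0.30, adjusted p = 0.419) were not called. By the same measure Map1b stood at rank 15, and Ina, at rank 669, was the least like of the 10 genes.

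Other genes of the axonal cytoskeleton were counted from 5 fixed lists. Of all genes tested, 9.55% fell and 29.4% were called in either direction in SCI + Vehicle mice. In SCI + Atorvastatin mice these shares were 14% and 38.9%. The lists are short, and none was tested against these shares. Of 20 tubulins and microtubule proteins of neurons, 8 fell and 1 rose in SCI + Vehicle mice, and 13 fell and 1 rose in SCI + Atorvastatin mice, against Uninjured Control mice, with list medians of -0.39 and -0.45. Tuba4a, an alpha-tubulin, fell by 0.82 on the log2 scale (adjusted p = 0.00162) and Tubb4a, a beta-tubulin, fell by 0.64 (adjusted p = 0.00203) in SCI + Vehicle mice. The 1 gene that rose, named here after its value was seen, was Dpysl3, a collapsin response mediator protein (0.56, adjusted p = 0.0185). Of 11 axonal transport motors, 5 fell and 0 rose in SCI + Vehicle mice and 7 fell and 0 rose in SCI + Atorvastatin mice, with medians of -0.45 and -0.55. Kif5a, the neuronal kinesin heavy chain that carries neurofilaments, fell by 0.87 (adjusted p = 0.00238) in SCI + Vehicle mice and by 1.05 (adjusted p = 6.25e-05) in SCI + Atorvastatin mice.

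The axonal membrane skeleton differed from gene to gene. Of its 9 genes, 2 fell and 1 rose in SCI + Vehicle mice and 3 fell and 1 rose in SCI + Atorvastatin mice, with medians of -0.08 and 0.02. Cntnap1, the Caspr protein of paranodal junctions, fell by 0.84 (adjusted p = 0.00723) in SCI + Vehicle mice, whereas Nfasc rose (0.48, adjusted p = 0.0107). Of 9 filament linkers, kinases and turnover genes, 2 fell and 0 rose in SCI + Vehicle mice and 2 fell and 1 rose in SCI + Atorvastatin mice, with medians of -0.15 and -0.21. The share of these 9 genes called in either direction was below that of all genes in both comparisons. Those that fell were Cdk5r1, the activator of a kinase that phosphorylates neurofilament tails (-0.90, adjusted p = 0.0141), and Gsk3b, a tau kinase (-0.50, adjusted p = 0.00587). Macf1, a spectraplakin, was at 0.45 (adjusted p = 0.0514) in SCI + Vehicle mice and rose in SCI + Atorvastatin mice (0.57, adjusted p = 0.0196).

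Of 6 intermediate filament genes of glia and other cells, 2 rose and 0 fell in SCI + Vehicle mice and 3 rose and 0 fell in SCI + Atorvastatin mice, with medians of 0.90 and 1.53. The others were not called, among them Lmna, a nuclear lamin named here after its value was seen (-0.19 in SCI + Vehicle mice, adjusted p = 0.482). Gfap, the astrocyte filament, rose by 1.75 on the log2 scale (adjusted p = 2.63e-05) and Vim, of astrocytes, fibroblasts and macrophages, by 2.86 (adjusted p = 0.00019) in SCI + Vehicle mice. Nes rose in SCI + Atorvastatin mice (1.21, adjusted p = 0.0309) and was at 0.90 (adjusted p = 0.128) in SCI + Vehicle mice. Between the injured groups 0 genes of the 5 lists were called, and the smallest p-values of 4 of the lists belonged to Tubb4a (-0.18), Kif5a (-0.20), Macf1 (0.09) and Nes (0.29), with adjusted p-values of 0.688 to 0.790.

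**Figure D5:**
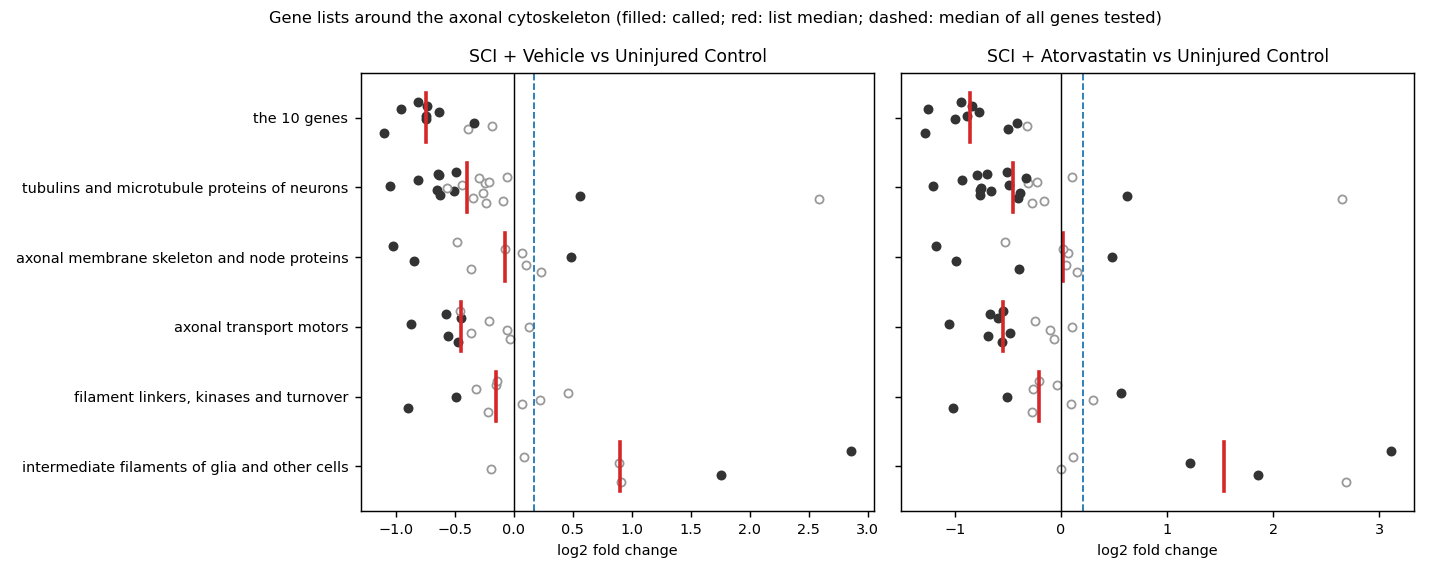
Log2 fold change against Uninjured Control mice (horizontal axis) for each gene of the 10 and of 5 other lists (rows), in SCI + Vehicle (left) and SCI + Atorvastatin mice (right). Filled points were called, red bars are list medians and the dashed line is the median of all genes tested (0.17 and 0.21), and the medians of the 10 genes and of the 4 other neuronal lists lie to its left while that of the glial filaments lies to its right.

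Markers of cell types were counted in the same way. Over all genes, 29.4% were called in SCI + Vehicle and 38.9% in SCI + Atorvastatin mice. No marker list was tested against these shares. The 8 neuron markers summed to 3393 and 3667 CPM in Uninjured Control mice, 1874 to 2827 CPM in SCI + Vehicle mice and 1727 to 2190 CPM in SCI + Atorvastatin mice. Of the 8, 4 fell in SCI + Vehicle mice and 6 in SCI + Atorvastatin mice, and 0 rose. Rbfox3 fell by 0.72 (adjusted p = 0.0403) and Snap25, which encodes a synaptic protein, fell by 0.79 (adjusted p = 0.0049) on the log2 scale in SCI + Vehicle mice. The 5 motor neuron markers summed to 128 and 193 CPM in Uninjured Control mice, 72.2 to 125 CPM in SCI + Vehicle mice and 64.8 to 85.5 CPM in SCI + Atorvastatin mice, and 1 of 5 fell in SCI + Vehicle and 2 of 5 in SCI + Atorvastatin mice. Slc18a3, the vesicular acetylcholine transporter, fell by 1.44 (adjusted p = 0.00427) in SCI + Vehicle mice. How much of the fall of the 10 genes goes with these markers was not tested beyond the ratio of Nefl to Rbfox3.

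Markers of sensory ganglia were at 0 in the Uninjured Control libraries and low but detected in every SCI library. All 6 markers of dorsal root ganglion (Avil and Scn10a among them) had 0 counts in both Uninjured Control libraries. By counting error alone, a count of 0 there allows up to 0.148 and 0.134 CPM for a gene. Of the genes with at least 10 counts in every SCI mouse, 13.6% and 15.6% were at 0 in these libraries. The 6 markers summed to 1.44 to 9.23 CPM in SCI + Atorvastatin mice and to 3.16 to 11.4 CPM in 6 SCI + Vehicle mice, with 48.5 CPM in SCI + Vehicle replicate 3. Of the 6, 3 passed the filter on low values, and they passed it through the SCI groups alone. With 0 counts in both Uninjured Control libraries a call could only be a rise. The calls (2 in SCI + Vehicle and 1 in SCI + Atorvastatin mice) are therefore no test of direction. SCI + Vehicle replicate 3 also had the second-highest Prph of its group (69.5 CPM, after 69.9 CPM in replicate 7). Without it Prph fell by 1.03 on the log2 scale in SCI + Vehicle mice and stood at -0.26 between the injured groups. Schwann cell markers summed to 535 and 764 CPM in Uninjured Control mice, 132 to 481 CPM in SCI + Vehicle mice and 356 to 583 CPM in SCI + Atorvastatin mice. Of the 5, 0 were called in SCI + Vehicle mice (0 at an unadjusted p below 0.05) and 2 fell in SCI + Atorvastatin mice.

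Oligodendrocyte markers summed to 13814 and 18033 CPM in Uninjured Control mice and 13058 to 18137 CPM in the injured mice, and 1 of 6 fell in SCI + Vehicle and 3 of 6 in SCI + Atorvastatin mice. Astrocyte markers summed to 4810 and 5536 CPM in Uninjured Control mice, 5491 to 6134 CPM in SCI + Vehicle mice and 5377 to 6384 CPM in SCI + Atorvastatin mice. Of the 5, 3 rose in each injured group, and the other 2 were below 0 and not called. These reached -0.57 in SCI + Vehicle and -0.53 in SCI + Atorvastatin mice, and in the latter all 5 had an unadjusted p below 0.05 by edgeR. Microglia or macrophage markers summed to 170 and 199 CPM in Uninjured Control mice and 1263 to 2048 CPM in injured mice, with 5 of 6 risen in each group. Fibroblast markers summed to 200 and 213 CPM in Uninjured Control mice, 110 to 913 CPM in SCI + Vehicle mice and 464 to 1495 CPM in SCI + Atorvastatin mice, and 0 of 4 rose in SCI + Vehicle mice by edgeR (1 at an unadjusted p below 0.05) and 3 of 4 in SCI + Atorvastatin mice. Of 3 endothelial markers, 0 were called in SCI + Vehicle mice (1 at an unadjusted p below 0.05) and 1 rose in SCI + Atorvastatin mice. Between the injured groups 0 markers of any list were called. By edgeR all 4 fibroblast markers were higher at an unadjusted p below 0.05. Over all 16091 genes tested, 647 were higher and 1132 differed in either direction at that limit. So did 1 of 8 neuron and 1 of 5 motor neuron markers, both lower, and 1 of 5 Schwann cell markers, higher. The part of these cells in the levels of the 10 genes was not tested.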

How the data were processed

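Total RNA libraries (SMARTer Stranded Pico kit) from 16 mice were sequenced by the authors. Per the submitters' processing notes, FastQC 0.12.1, Trimmomatic 0.38, STAR 2.5.4b and RSEM 1.3.1 were used with mm10. The values deposited by the authors are raw gene counts without normalization and TPM values, the latter corrected for length and library total. Whether counting used strand is not given in the sources used here.

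Groups came from the labels, 1 library per mouse. Of 24411 symbols, the 16091 whose group mean exceeded 1 TPM somewhere were tested on counts with edgeR 4.0.16 (quasi-likelihood, TMM factors, R 4.3.3), each comparison fitted on its 2 groups, with Benjamini-Hochberg adjustment over all genes tested. A call needed a change past 1.25-fold and an adjusted p below 0.05. Ratios used counts plus 0.5 and exact two-sided permutation tests, and correlations used log2 TMM-CPM with 100000 permutations (scipy 1.17.1). The fitting steps were tested on simulated data. In SCI + Vehicle vs Uninjured Control, edgeR recovered there 24% of genes set at a log2 difference of 1 and 47% at 2. In SCI + Atorvastatin vs Uninjured Control these shares were 25% and 56%. Between the injured groups they were 79% and 95%. A gene without a call against Uninjured Control mice may still differ. Depth was 14823292 to 25579826 counts per library, at which a count of 0 allows up to 0.117 to 0.202 CPM, a limit for counting error only. DESeq2 1.42.0 and limma 3.58.1 were alternatives, with other filters, scalings and left-out mice.

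The genes named are the 10 members, in each other list the 2 with the smallest p in SCI + Vehicle vs Uninjured Control and the 1 with the smallest p between the injured groups, the 5 genes most like the neurofilament subunits, and tissue markers; some genes that this rule names are not reported here. The members and lists were chosen with earlier results of these data known.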

Additional observations from a re-analysis of the deposited data

Results flagged for a closer look

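Over 34 sets of 7 mice examined (levels and ratios of the 10 genes in each injured group), 2 held a mouse whose gap to the nearest other exceeded 0.568 of the range, and chance gives about 1 in 20. Map2 in SCI + Vehicle replicate 7 was at 951 CPM, with the next mouse at 772 CPM. The log2 count ratio of Tubb3 to Nefl in SCI + Atorvastatin replicate 1 was -3.24, with the next mouse at -3.03.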

How the results depend on the processing

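The number of the 10 genes called in SCI + Vehicle vs Uninjured Control (8) was 3 on log2(TPM + 1) and 3 on log2(TPM + 0.1), 0 with voom and group quality weights, 4 at an adjusted p below 0.01, and 5 (without SCI + Vehicle replicate 4) to 9 (without SCI + Vehicle replicate 7) when 1 mouse was left out. Without SCI + Vehicle replicate 4 the calls of Nefm, Nefh and Mapt were lost. In SCI + Atorvastatin vs Uninjured Control (9) it was 0 with voom and 8 to 10 without 1 mouse. When 1 control mouse was left out, the other was assumed to vary like the injured mice. With the replicate number as a block, 0 genes were called in either comparison (7 of 10 at an unadjusted p below 0.05 in each, and 16 and 0 of all genes called). Only numbers 1 and 2 occur among the control mice, so injured mice 3 to 7 did not bear on the group difference in that fit. The numbers did not pair the mice, since the deviations of same-numbered injured mice correlated from -0.191 to 0.119 and in 0 of 7 pairs was a mouse most like its own number. Over all genes, calls in SCI + Vehicle vs Uninjured Control were 4726 with edgeR and 132 with voom, and in SCI + Atorvastatin vs Uninjured Control 6259 and 145. Map2 changed sign on TPM, to 0.14 on log2(TPM + 1) and 0.14 on log2(TPM + 0.1) in SCI + Vehicle mice and to 0.00933 and 0.00946 in SCI + Atorvastatin mice, where the median of all genes also moved up. No ratio test passed under any alternative, and small ratio differences changed sign. As TPM ratios, Nefm per Nefl between the injured groups was -0.00659, Nefh per Nefl in SCI + Vehicle mice 0.018, and Ina per Nefl 0.018 in SCI + Vehicle and 0.013 in SCI + Atorvastatin mice against Uninjured Control. Without 1 mouse, Nefm per Nefl between the injured groups ran from -0.055 to 0.038 and Ina per Nefl from -0.12 to 0.070. Against Uninjured Control, in SCI + Vehicle mice Nefh per Nefl ran from -0.095 to 0.068, Tubb3 per Nefl from -0.043 to 0.058, Map2 per Mapt from -0.076 to 0.36 and Nefl per Rbfox3 from -0.42 to 0.32. In SCI + Atorvastatin mice Map2 per Mapt ran from -0.13 to 0.31 and Nefl per Rbfox3 from -0.33 to 0.41. The cause of these changes was not tested. The 2 control mice limit every comparison with them.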
